A study of Mus musculus with 96 samples.

Results

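The genes described here are the mouse potassium channel genes outside the A-type channel complex: protein-coding genes whose symbol starts with Kcn, apart from Kcnip1 to Kcnip4, Kcnd2 and Kcnd3. A mean of at least 1 CPM (a library's counts scaled to a common total, the unit of relative abundance used throughout) over 96 libraries was required. Of 88 such genes, 64 met the minimum and 24 did not, out of 55335 genes in the deposited table. The lowest members were Kcnrg at 2.34 CPM and Kcns1 at 2.79 CPM, and the genes nearest below the minimum were Kcne4 at 0.979 CPM and Kcng4 at 0.936 CPM. All 64 members were tested in every fit.

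Potassium channels let potassium ions leave the cell along their gradient and so set resting potential, spike shape and the spacing of spikes. Voltage-gated (Kv) channels open on depolarisation, inward rectifiers (Kir) and two-pore-domain (K2P) channels carry resting or receptor-driven current, and a further class opens with internal calcium or sodium. Silent Kv subunits form channels only together with Kv2 subunits, and auxiliary subunits carry no ions but tune the channels they bind. Cortical interneuron classes are known to differ in firing pattern and in the potassium channels they use.

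The libraries hold nuclear RNA from visual cortex of mice with floxed enhancers of Igf1, in lines Igf1-E1 fl/fl, Igf1-E23 fl/fl and Igf1-E123 fl/fl, all crossed with VIP flp/wt. All mice received, at 55 to 60 days of age, an AAV with a Syn1 promoter and a flp-dependent insert, giving mScarlet-KASH with either Cre or the inactive dCre. Expression of Cre or dCre is thereby limited to cells with VIP-driven flp, the interneurons that make vasoactive intestinal peptide. The mice went into the dark 3 days later for 10 to 12 days and were killed in the dark or after 1 h of light. VIP nuclei and total nuclei were sorted, at 50 to 100 nuclei a library. Each fraction had, in line E1, 5 light and 3 dark dCre and 4 light and 5 dark Cre replicates. Lines E23 and E123 had 4 replicates of each condition, apart from 3 of dark Cre in E123. The labels call the replicates biological without naming the animals, so p-values measure the spread between these samples, which may be partly technical. Igf1 itself was lower with Cre than with dCre in VIP nuclei of E1 (medians 393 against 742 CPM, edgeR adjusted p = 0.03) and E123 (295 against 600 CPM, edgeR adjusted p = 0.0418). In E23 it did not pass (547 against 654 CPM, edgeR adjusted p = 0.876).

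Library totals ran from 1559883 to 9122515 counts. The label of VIP nuclei was matched by its markers: 10 of 10 VIP markers and 8 of 8 GABAergic markers were higher than in total nuclei, and the summed VIP markers were 1149 to 23402 CPM against 132 to 864 CPM. Excitatory markers were lower in VIP nuclei for 10 of 10 genes, with sums of 406 to 2642 CPM against 1193 to 2016 CPM. Oligodendrocyte lineage markers were lower for 10 of 10 genes and microglial markers for 7 of 7. Other lists were mixed. Endothelial or mural markers were higher for 2 of 8 genes and lower for 0, with sums of 1.07 to 626 CPM against 0.205 to 118 CPM. Parvalbumin markers were higher for 1 and lower for 2 of 5 genes, and somatostatin markers lower for 3 of 5. Lamp5 or Sncg markers were higher for 2 and lower for 2 of 4 genes. A length index, the difference in mean log2(CPM + 1) between genes of at least 100000 bases and genes of at most 20000 bases, set some dark dCre libraries apart. Among VIP groups, dark dCre averaged 3.31 ± 0.854 (SD, n = 3) for line E1 and 3.31 ± 0.629 (SD, n = 4) for line E123, and the other 10 group means were 1.61 to 2.89. In total nuclei it was 2.93 and 2.99 in the same groups, against 1.75 to 2.49 in the others. Replicates 1 and 2 of both groups, with VIP values of 3.79 to 3.83, are all labelled female, whereas the 22 other female VIP libraries had 1.23 to 3.03. Over the 3 lines, 7 of 11 dark and 6 of 13 light dCre libraries of each fraction are female. With sex as a covariate, an analysis chosen after seeing the data, 42 members passed in VIP against total nuclei, 7 and 8 for light in dCre VIP and dCre total nuclei and 2 in Cre total nuclei.

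The pore of these channels is lined by a selectivity filter, a short loop whose sequence recurs from Kv to Kir channels. The stretches below show that shared coding sequence in 7 of the members described below, each with 1 match. Each is 30 bases of coding sequence within 1 exon, from the GENCODE annotation of GRCm38, and the capitals mark 4 consecutive codons of the forms NTN, GGN, TNN and GGN.
Kcnc1: atgacgacaCTGGGCTATGGAgacatgtat
Kcnc2: atgactaccTTAGGTTACGGGgatatgtac
Kcnc4: atgacaacgCTTGGCTATGGGgacatgtat
Kcnt2: ttttctactGTGGGCTTTGGGgatgtcact
Kcnma1: atgtctacaGTGGGTTATGGGgacgtttat
Kcnj3: gaggccaccATCGGCTATGGCtaccgctac
Kcnf1: atgaccacaGTGGGCTATGGTgacatctac
They lie at chr7:46427967-46427996 (plus strand), chr10:112456223-112456252 (plus), chr3:107447790-107447819 (minus), chr1:140425272-140425301 (plus), chr14:23528404-23528433 (minus), chr2:55437621-55437650 (plus) and chr12:17175052-17175081 (minus), in that order. The pattern, read in frame in the longest coding sequence of each gene, occurred in 57 of 64 members (89.1%), against 10.4% of 21584 coding genes. The 5 auxiliary genes, Kcnrg and the K2P gene Kcnk1 were the 7 members without a match. All 5 Kv7 genes and 7 of 8 K2P genes had 2 or more matches, and the 8 silent subunits had 1 match each. A match is a run of codons, so 2 matches do not show that a gene encodes 2 filters. Of the members printed, Kcnc1, Kcnc2, Kcnt2, Kcnj3 and Kcnf1 were higher in VIP than in total nuclei and Kcnc4 and Kcnma1 were lower, as described below.

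Members together made up 9505 ± 1690 CPM (SD, n = 48) in VIP nuclei and 9586 ± 1642 CPM in total nuclei, a difference smaller than the SD of either fraction. In VIP nuclei Kcnq5, Kcnb2, Kcnh7, Kcnn2 and Kcnq3 held 47.2% of it. In total nuclei Kcnma1, Kcnh7, Kcnq5, Kcnq3 and Kcnb2 held 57.0%. To compare genes, levels were divided by exon length. On this scale Kcnq5, a Kv7 subunit of the slow M-current, led in both fractions, at 215 CPM per kb of exon in VIP nuclei and 141 in total nuclei. In VIP nuclei it was followed by Kcnmb2 (173), Kcnj3 (101), Kcnq1 (92.3), Kcnn2 (91.3), Kcnt2 (84.5), Kcnc2 (84.3), Kcnb2 (67.5), Kcnh7 (50.7) and Kcnq3 (45.3). In total nuclei the next were Kcnh7 (84.2), Kcnq1 (83.5), Kcnma1 (80.8), Kcnj3 (74.2), Kcnq3 (55.4), Kcnc2 (54.4), Kcnb2 (48.6), Kcnh5 (44.3) and Kcnj6 (38.7). Whether reads were counted over exons or whole gene bodies is not given in the sources used here, and the order depends on it. With counts over whole gene bodies, the scale per kb of exon would favour genes with long introns. Per kb of gene span, Kcnf1, a gene of 4789 bases, led instead, at 14.3 CPM per kb in VIP and 9.67 in total nuclei.

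The place of Kcnq1 in that order carries a limit. Kcnq1 had a mean of 351 CPM over the 96 libraries, and Kcnq1ot1, an antisense RNA within it that covers 29.0% of its span, had 348 CPM. In single libraries Kcnq1ot1 held 94.1 to 100% of the counts of Kcnq1. No strand marking is named in the protocol, so reads of the 2 genes cannot be told apart. In all, 27 members overlap another gene of at least 1 CPM, 23 of them on the opposite strand. Kcna3 lies wholly within Gm27008, Kcnj13 within Gigyf2 and Kcnrg within Dleu2. Gm26673 covers 68.0% of Kcna6 and A330015K06Rik covers 63.1% of Kcnab1. Overlaps of a small part of a gene can also carry many counts. Gm45875, antisense to Kcnk1 over 4.05% of its span, had 50.0% as many counts as Kcnk1, and Kcnab3os, over 33.9% of Kcnab3, had 41.5% as many. Kcnk1 and Kcnab3 had at least the counts of these partners in 96 of 96 libraries, as Kcnq1 had of Kcnq1ot1. Catsperz, on the same strand over 13.4% of Kcnk4, had 48.1% as many counts as Kcnk4. Nphp4, over 1.34% of Kcnab2, had 52.6% as many, and Mcrs1, over 0.00557% of Kcnh3, had 89.7% as many. Values of all these members, among them Kcnk4 and Kcnh3 below, are therefore uncertain.

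The comparison of VIP with total nuclei asks which channels a VIP interneuron carries beyond the average of the tissue. Of 64 members, 42 passed (edgeR, adjusted p under 0.05), 15 higher and 27 lower in VIP nuclei. Among all 22926 genes tested 35.5% passed (14.8% higher, 20.7% lower), and among protein-coding genes of at least 1 CPM 42.2% did. The median log2 fold change was -0.21 over members and -0.11 over all genes. The auxiliary subunit Kcnmb2, the calcium-activated Kcnn2, the Kv3 gene Kcnc1 and the sodium-activated Kcnt2 were among the genes higher by the smallest p-values. Kcnma1, the silent Kcnv1, the EAG gene Kcnh7, the K2P gene Kcnk13 and the Kv3 gene Kcnc4 led the lower genes. With sorted pools of nuclei, more cells of a type and more RNA per cell cannot be told apart.

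**Figure D1:**
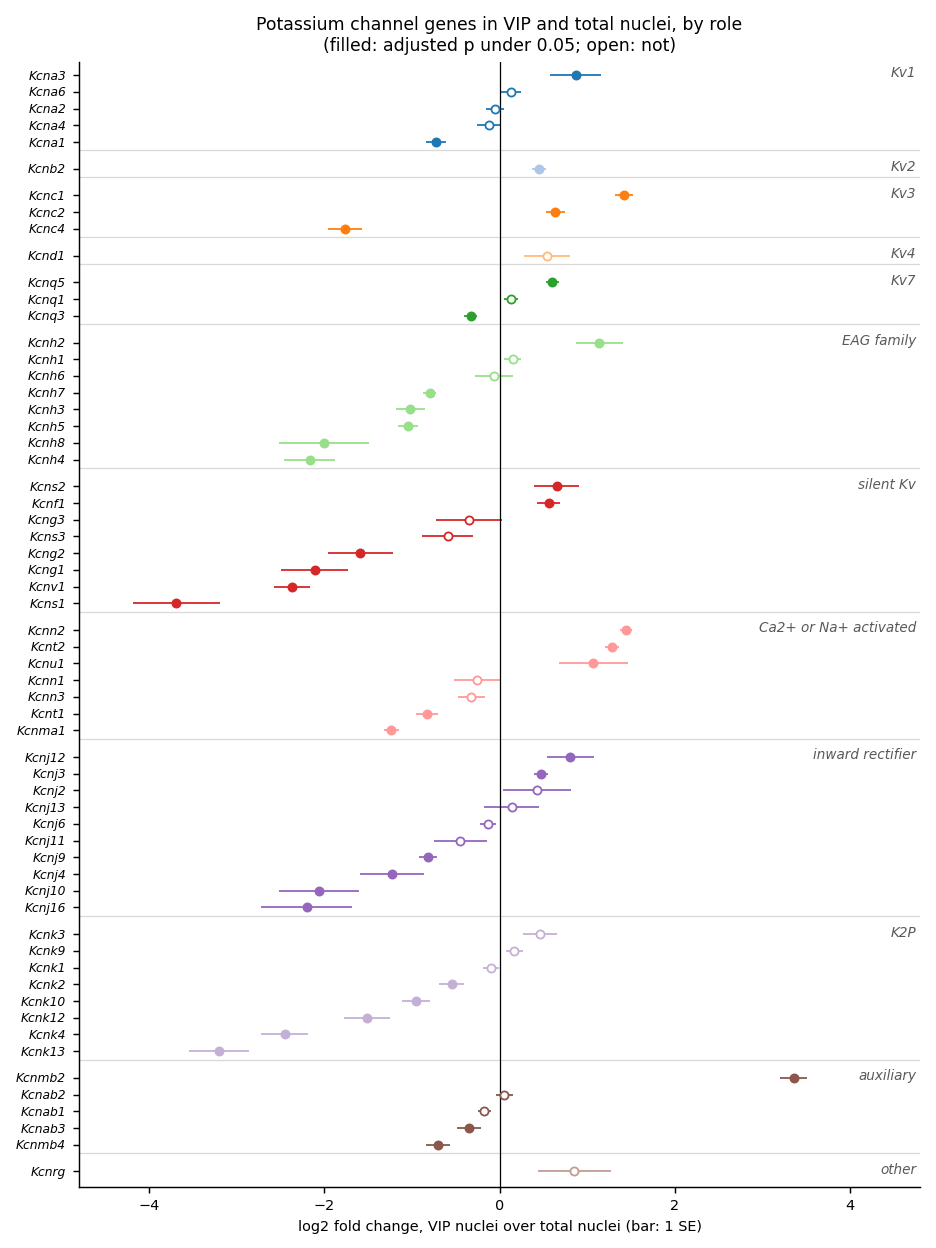
Log2 fold change of VIP over total nuclei (x axis, bars 1 SE) for 60 of the 64 members, grouped by role (y axis), with filled points for adjusted p under 0.05. Filled points fall on both sides of 0 within most roles, from Kcnmb2 at 3.35 to Kcns1 at -3.69, and no K2P gene has a filled point above 0.

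Auxiliary subunits included the most raised member. Kcnmb2 encodes the beta2 subunit, which inactivates large-conductance calcium-activated (BK) channels. Its level in total nuclei was 8.13 CPM at the lowest, 51.0 at the median and 184 at the highest of 48 libraries, and in VIP nuclei 297, 516 and 1077 CPM. Every VIP library stood above every total library, and the log2 fold change was 3.35 ± 0.15 (SE, edgeR adjusted p = 1.15e-31). Kcnmb4, the neuronal beta4 subunit of the same channels, fell by 0.70 ± 0.14 (edgeR adjusted p = 1.14e-05), from a median of 34.0 to 22.1 CPM. Kcnma1, the pore gene of BK channels, was also lower, at medians of 548 against 1340 CPM, with 35 of 48 VIP libraries below the lowest total library (log2 fold change -1.23 ± 0.08, edgeR adjusted p = 2.71e-23). VIP nuclei thus had less pore transcript, less Kcnmb4 and more Kcnmb2 of this channel. Of the Kv1 partners, Kcnab3 was lower (-0.35 ± 0.14, edgeR adjusted p = 0.0332), and Kcnab1 (-0.18) and Kcnab2 (0.06) did not pass. The Kcnab3 call was lost in 8 of 48 leave-one-out fits.

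Among the channels opened by calcium or sodium and their relative Kcnu1, 3 of 7 were higher and 2 lower. Kcnn2, a small-conductance channel that slows firing after a spike, ran from 439 to 1005 CPM in VIP nuclei (median 681) and from 99.6 to 480 CPM in total nuclei (median 251). Of the 48 VIP libraries 42 lay above the highest total library (1.45 ± 0.07, edgeR adjusted p = 4.03e-34). The 2 sodium-activated genes moved apart. Kcnt2 was higher at medians of 563 against 233 CPM (1.28 ± 0.08, edgeR adjusted p = 1.85e-26), and Kcnt1 was lower at 34.3 against 63.4 CPM (-0.82 ± 0.13, edgeR adjusted p = 3.81e-08). Kcnu1, a relative of the BK pore gene that opens with alkaline pH, was higher at a low level (medians 3.14 against 1.58 CPM; 1.07 ± 0.39, edgeR adjusted p = 0.0237), a call lost under 4 of 8 alternative analyses. Kcnn1 and Kcnn3 did not pass.

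**Figure D2:**
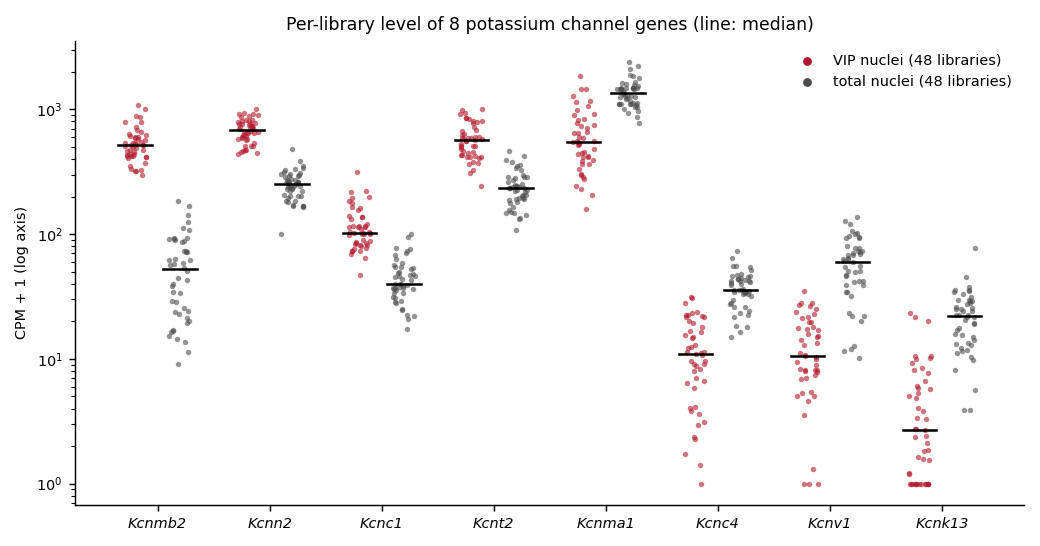
CPM + 1 on a log axis for 8 members in each of 48 VIP (red) and 48 total (grey) libraries, with a line at each median. The Kcnmb2 libraries of the fractions do not overlap (lowest VIP 297, highest total 184 CPM), whereas those of Kcnt2, Kcnma1 and Kcnk13 do.

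Kv7 channels carry the M-current, which opposes repeated firing. Kcnq5 was higher by 0.60 ± 0.08 (edgeR adjusted p = 1.12e-10), with medians of 1493 and 969 CPM. Kcnq3, a classical M-current subunit, was slightly lower (-0.33 ± 0.07, edgeR adjusted p = 0.000183), with ranges that overlapped widely. Kcnq1 did not pass.

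Kv3 channels repolarise spikes quickly and allow fast firing. Kcnc1 was higher in VIP nuclei in 12 of 12 conditions (1.42 ± 0.10, edgeR adjusted p = 4.84e-23). Its medians were 102 CPM in VIP and 39.1 CPM in total nuclei, and 29 of 48 VIP libraries lay above the total range. Kcnc2 was higher to a smaller degree (0.64 ± 0.11, edgeR adjusted p = 3.7e-07), from 359 to 557 CPM at the median. Kcnc4 was the opposite, at 10.0 against 34.6 CPM (-1.76 ± 0.19, edgeR adjusted p = 4.37e-13), and lower in 12 of 12 conditions.

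The Kv2 genes make the main delayed rectifier of cortical neurons. Kcnb2 was higher by 0.45 ± 0.08 (edgeR adjusted p = 1.95e-06, medians 987 against 696 CPM). The Kv1 genes, which set spike threshold, gave 1 higher, Kcna3 (0.87 ± 0.29, edgeR adjusted p = 0.0123), and 1 lower, Kcna1 (-0.73 ± 0.11, edgeR adjusted p = 4.92e-08). Kcna1 stood at a median of 20.9 CPM in VIP and 35.3 CPM in total nuclei, and 23 of 48 VIP libraries lay below the total range. Kcna2, Kcna4, Kcna6 and the Kv4 gene Kcnd1 did not pass.

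Of the 8 EAG-family genes, which carry ether-a-go-go, erg and elk currents, 5 were lower and 1 higher. Kcnh7, the most abundant, fell by 0.80 ± 0.08 (edgeR adjusted p = 3.23e-15), from a median of 1172 to 718 CPM. Kcnh5 fell by 1.04 ± 0.12 (edgeR adjusted p = 1.22e-12), Kcnh3 by 1.02 ± 0.17 (edgeR adjusted p = 2.48e-07) and Kcnh4 by 2.17 ± 0.29 (edgeR adjusted p = 9.89e-10). Kcnh8 was also lower, but its counts were sparse, at 0 in 19 VIP and 8 total libraries. Kcnh2, the erg gene best known from the heart, was higher in 12 of 12 conditions at a low level, 7.21 against 3.14 CPM at the median (1.14 ± 0.27, edgeR adjusted p = 0.000279). Kcnh1 and Kcnh6 did not pass.

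Silent subunits showed 4 lower and 2 higher of 8. Kcns1 had the widest fall, 3.69 ± 0.50 on the log2 scale (edgeR adjusted p = 1.45e-09). It was at 0 in 28 of 48 VIP libraries and 5 of 48 total libraries, and its highest VIP value was 9.04 CPM. Kcnv1 was better measured, at medians of 9.61 against 59.2 CPM, and fell by 2.37 ± 0.20 (edgeR adjusted p = 4.81e-17) with 22 VIP libraries below the total range. Kcng1 (-2.11 ± 0.38) and Kcng2 (-1.59 ± 0.37) were lower at edgeR adjusted p-values of 2.68e-06 and 0.000231. Kcnf1 (0.56 ± 0.13, edgeR adjusted p = 0.000287) and Kcns2 (0.65 ± 0.25, edgeR adjusted p = 0.0352) were higher. The Kcns2 call was lost under 3 alternatives and in 9 leave-one-out fits. Kcng3 and Kcns3 did not pass.

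Among inward rectifiers 2 were higher and 4 lower of 10. Kcnj3, Kcnj6 and Kcnj9 encode subunits of the channel that Gi-coupled receptors open. Kcnj3 was higher (0.47 ± 0.08, edgeR adjusted p = 6.29e-07, medians 493 against 349 CPM), Kcnj9 lower (-0.81 ± 0.10, edgeR adjusted p = 3.71e-11, medians 22.7 against 40.0 CPM), and Kcnj6 did not pass (-0.13 ± 0.09). Kcnj12, a strong rectifier, was higher (0.81 ± 0.26, edgeR adjusted p = 0.0101), and Kcnj4 of the same subfamily was lower (-1.23 ± 0.36, edgeR adjusted p = 0.00406). The glial rectifiers Kcnj10 (-2.06 ± 0.46, edgeR adjusted p = 0.00013) and Kcnj16 (-2.20 ± 0.52, edgeR adjusted p = 0.000295) were lower. Kcnj10 was at 0 in 17 VIP libraries and 1 total library, and reached 36.3 CPM in 1 VIP library. Astrocyte markers moved the same way for 3 of 8 genes, and their sum spanned 156 to 2882 CPM in VIP nuclei and 337 to 994 CPM in total nuclei. Of that list Sox9 was at 0 in 13 and Aqp4 in 12 VIP libraries, and the part of astrocyte RNA in the rectifier values was not tested.

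K2P channels, which carry the leak current, were lower or uncalled: 5 of 8 fell and none rose. Kcnk13 fell by 3.20 ± 0.34 (edgeR adjusted p = 2.61e-13), from a median of 21.0 to 1.70 CPM, and was at 0 in 13 VIP libraries. Kcnk13 is known as a channel of microglia. The 7 microglial markers were all lower, with sums of 57.3 to 225 CPM in VIP and 104 to 1296 CPM in total nuclei, and Tmem119 was at 0 in 29 VIP libraries. Their part in the Kcnk13 result was not tested. Kcnk4, a mechanosensitive neuronal channel, fell by 2.45 ± 0.27 (edgeR adjusted p = 4.49e-13), from 14.2 to 2.19 CPM at the median. Kcnk12 (-1.51 ± 0.26), Kcnk10 (-0.95 ± 0.16) and Kcnk2 (-0.55 ± 0.14) were lower with edgeR adjusted p-values of 6.35e-07, 4.1e-07 and 0.000934. Kcnk1, Kcnk3 and Kcnk9 did not pass, at log2 fold changes of -0.09 ± 0.09, 0.46 ± 0.19 and 0.17 ± 0.10.

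Genes known to bind or anchor these channels formed a list of 25 that includes the related Hcn channels. Of 23 tested, 14 were higher and 6 lower, with a median log2 fold change of 0.37. Over all genes tested 14.8% were higher and 20.7% lower, with a median of -0.11. Cntnap2, which anchors Kv1 channels on axons, had 4033 ± 1492 CPM in VIP and 1681 ± 647 CPM in total nuclei (SD, n = 48; log2 fold change 1.27 ± 0.09, edgeR adjusted p = 3.17e-23). Amigo1, a Kv2 partner, was higher (1.11 ± 0.13, edgeR adjusted p = 6.18e-12). Hcn4 had 3.39 ± 3.09 CPM in VIP nuclei, was at 0 in 41 of 48 total libraries and passed as higher (edgeR adjusted p = 1.33e-14). Lrrc55, an auxiliary protein of BK channels, was lower (-2.71 ± 0.40, edgeR adjusted p = 1.42e-08), as were Kcnma1 and Kcnmb4.

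Between 40 and 44 members passed in each of 48 fits that left out the VIP and total library of 1 condition and number, and between 40 and 44 under 8 other analyses.

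The light comparison asks which genes change within 1 h of light after long darkness. The rapid activity genes Fos, Fosb, Junb, Egr1, Npas4, Nr4a1 and Arc were higher after light for 7 of 7 genes in dCre VIP nuclei, dCre total nuclei and Cre total nuclei, and for 5 of 7 in Cre VIP nuclei. In dCre VIP nuclei, as an average of the 3 lines, 8 of 64 members passed, 2 higher and 6 lower (12.5%), against 6.27% of 20585 genes (3.97% higher, 2.3% lower). None of the 8 passed without E1 dark dCre replicates 1 and 2, or with the length index as a covariate. Without those 2 libraries the dark dCre group of E1 holds 1 library. Leaving out either of them alone took calls over all genes from 1290 to 646 or 651, so calls fell beyond these members as well. With total counts in place of TMM 5 members passed, 2 higher and 3 lower.

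The 2 higher genes were Kcnf1 and Kcnmb4. Kcnf1 encodes a silent partner of Kv2 channels. Dark dCre VIP libraries held 7.72 CPM at the lowest, 31.6 at the median and 88.4 at the highest of 11, and light libraries 10.2, 70.0 and 167 CPM of 13. The groups overlapped, with a log2 fold change of 1.03 ± 0.23 (edgeR adjusted p = 0.00597), and the lowest libraries of both groups came from line E123. Without the 2 E1 libraries it was 0.93, and with the length index as a covariate 0.58, neither passing. Kcnmb4 had medians of 21.5 CPM in the dark and 36.8 CPM in light, with overlapping ranges (1.02 ± 0.33, edgeR adjusted p = 0.0471), and lost its call in 19 of 48 leave-one-out fits. In line E23 its 4 dark libraries (2.01 to 8.61 CPM) lay below its 4 light libraries (14.3 to 37.9 CPM).

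Among the 6 lower genes were Kcnab1, Kcnt2, Kcnh1, Kcnmb2 and Kcnc2, and Kcnt2, Kcnmb2 and Kcnc2 are also among those higher in VIP than in total nuclei. Kcnt2 had 404, 705 and 864 CPM (lowest, median, highest of 11) in the dark and 361, 410 and 578 CPM (of 13) in light. In E1 the 3 dark libraries (600 to 864 CPM) lay above the 5 light ones (365 to 564 CPM), in E123 1 dark library at 404 CPM lay among the light ones, and in E23 the lowest dark library (566 CPM) lay below the highest light one (578 CPM). The log2 fold change was -0.64 ± 0.15 (edgeR adjusted p = 0.00919). Kcnab1, a Kv1 beta subunit, fell by 0.68 ± 0.15 (edgeR adjusted p = 0.00491), from a median of 294 to 175 CPM. Kcnh1 (-0.66 ± 0.19), Kcnc2 (-0.54 ± 0.17) and Kcnmb2 (-0.49 ± 0.14) had edgeR adjusted p-values of 0.0259, 0.0425 and 0.0306. These 3 lost their calls in 4, 17 and 8 leave-one-out fits, and Kcnc2 also with sex as a covariate (edgeR adjusted p = 0.0649).

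Single libraries also moved the number of members called. It was 4 without E1 dark replicate 1 or E23 dark replicate 1, where calls over all genes fell as well, from 1290 to 646 and 784. It was 5 without E1 dark replicate 2, E123 dark replicate 2, E23 dark replicate 3, E1 light replicate 2 or 3, or E123 light replicate 1, with 651 to 947 calls over all genes. Cell type markers moved with light in the same nuclei. Of markers that VIP cells carry themselves, 5 of 8 GABAergic and 2 of 10 VIP markers were higher in light. Of markers of other cells, 4 of 8 astrocyte, 2 of 5 parvalbumin, 2 of 5 somatostatin and 1 of 10 excitatory markers were higher. So were 1 of 7 microglial and 1 of 10 oligodendrocyte lineage markers, and none of these lists had a lower gene. Summed astrocyte markers were 156 to 412 CPM in dark and 203 to 1605 CPM in light dCre VIP libraries, and oligodendrocyte sums 50.6 to 388 CPM and 108 to 2119 CPM. Their part in the channel values was not tested.

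**Figure D3:**
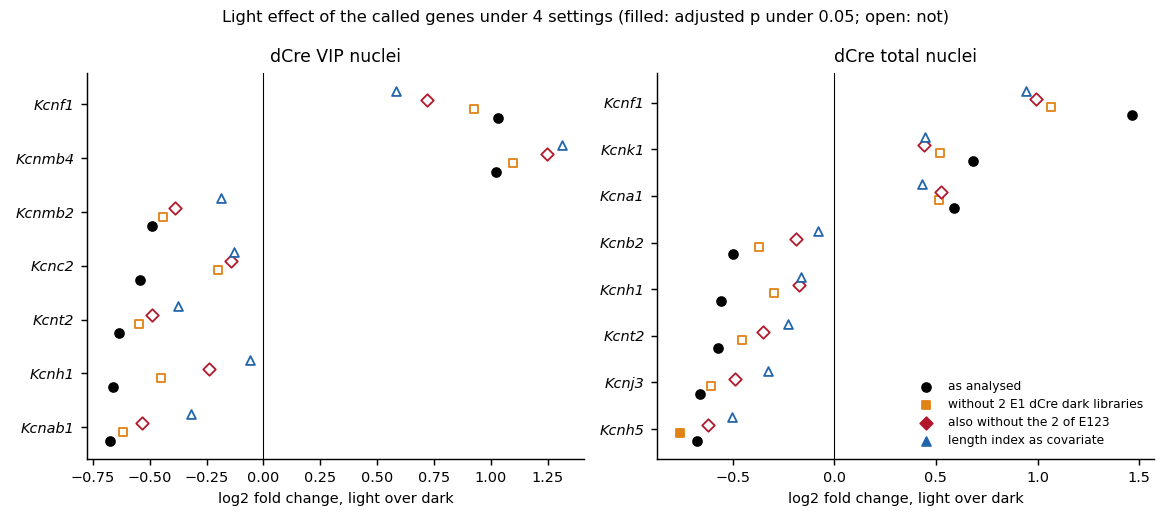
Log2 fold change of light over dark (x axis) for 7 of the 8 members called in dCre VIP (left) and the 8 called in dCre total nuclei (right), as analysed, without E1 dark dCre replicates 1 and 2, without those of E123 as well, and with the length index as a covariate. Filled symbols mark adjusted p under 0.05. All black circles are filled, and of the other symbols only Kcnh5 in total nuclei without the 2 E1 libraries is.

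Direction followed gene span. Of 19 members of at least 100000 bases, 16 were lower after light in dCre VIP nuclei (median log2 fold change -0.35), and of 19 members of at most 20000 bases, 8 were (median 0.08). Over all genes tested with a span in these classes, 77.8% of 2317 long and 25.9% of 5576 short genes were lower. The length index is itself the gap between long and short genes, so as a covariate it takes out such a trend by construction. With the length index as a covariate, 6 of the 19 long members were lower (median 0.08). Without the 4 E1 and E123 dark libraries, which were picked for their high index, 12 of 19 were (median -0.11). In Cre VIP nuclei 15 of 19 long members were lower at a smaller median of -0.14, against 54.7% of all long genes. With the length index as a covariate 13 of 19 were (median -0.06). Dark Cre VIP groups had mean length indices of 1.71 (E1), 2.07 (E23) and 2.44 (E123), and light ones 1.85, 1.90 and 2.13. The highest dark library had an index of 2.87 and the highest light one 2.41.

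**Figure D4:**
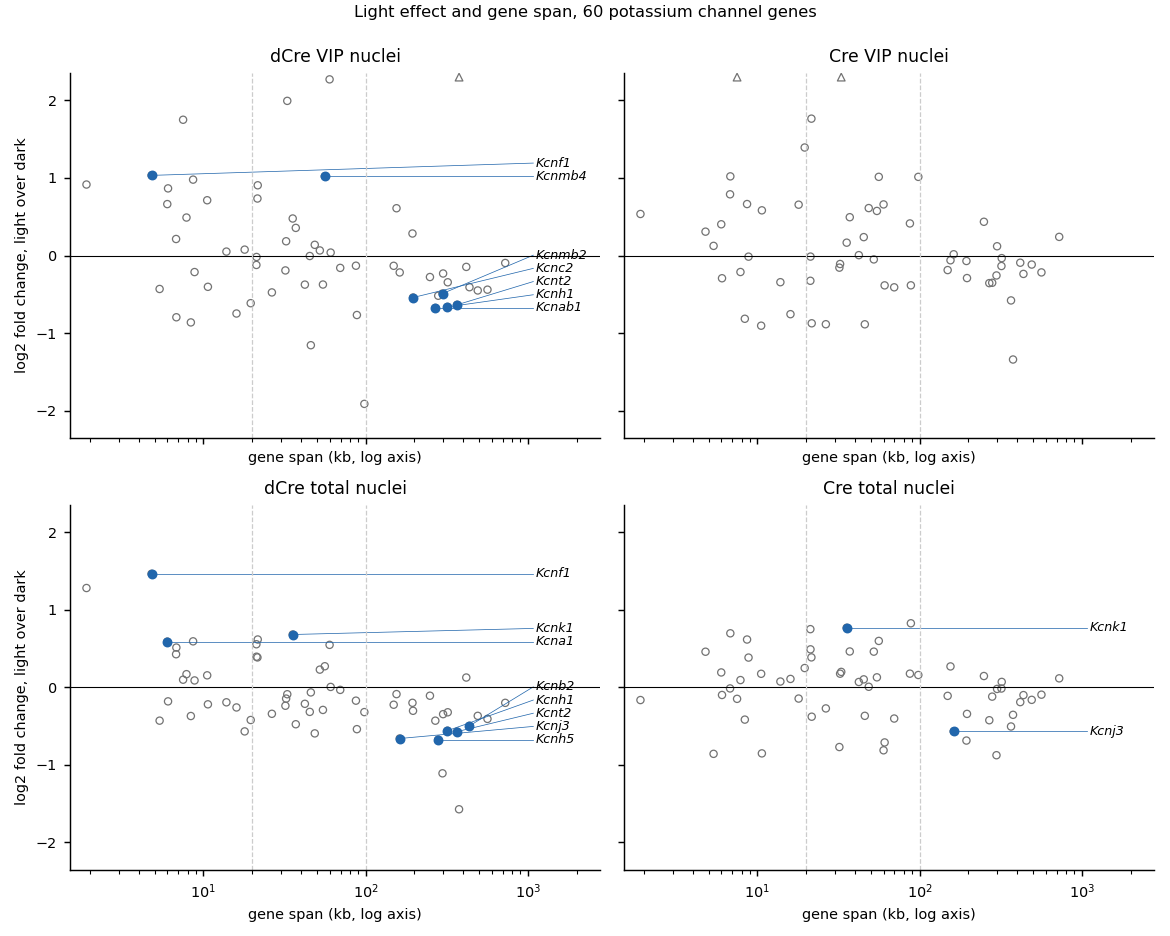
Log2 fold change of light over dark against gene span in kb (log axis) for 60 of the 64 members in 4 comparisons, with filled, named points for adjusted p under 0.05, dashed lines at 20 and 100 kb, and triangles for values beyond the axis. In dCre nuclei most members beyond 100 kb lie below 0 (16 of 19 in VIP and 18 of 19 in total nuclei).

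In Cre VIP nuclei no member passed (edgeR; 9 had an unadjusted p under 0.05), against 0.35% of all genes. DESeq2 called 2, and the fit without a filter on low counts 2. The smallest p-values were those of Kcnt2 (-0.58 ± 0.15, edgeR adjusted p = 0.0732), Kcnmb4 (1.01 ± 0.32, edgeR adjusted p = 0.189) and the sparse Kcnj10 (edgeR adjusted p = 0.334). Kcnt2 had 299, 632 and 971 CPM in the dark (lowest, median, highest of 12) and 230, 470 and 583 CPM in light. Its mean log2(CPM + 1) was lower in light in each of the 3 lines with either virus, by -0.43 to -0.65. It passed in Cre VIP nuclei in 4 of 8 alternatives and without E123 dark replicate 3 or E23 dark replicate 2. No member passed for a difference in light response between Cre and dCre VIP nuclei (edgeR; 5 at an unadjusted p under 0.05, 0 with DESeq2; 0.00486% of all genes passed). The smallest p-values were those of Kcnj6 (0.71 ± 0.28, edgeR adjusted p = 0.426), Kcnh8 (edgeR adjusted p = 0.432) and Kcnk13 (edgeR adjusted p = 0.47).

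In dCre total nuclei 8 of 64 members passed, 3 higher and 5 lower, against 5.69% of 21213 genes (3.42% higher, 2.27% lower). In the same comparison 2 of 10 VIP markers and 1 of 8 astrocyte markers were higher and 2 of 10 excitatory markers were higher and 1 lower, and their part in the channel values was not tested. Kcnf1 was again higher (1.46 ± 0.30, edgeR adjusted p = 0.00188), at 3.66, 12.0 and 68.7 CPM in 11 dark libraries and 10.3, 45.1 and 106 CPM in 13 light ones. Kcnk1, a weakly conducting K2P channel, had 31.6, 45.9 and 74.8 CPM in the dark and 48.9, 82.7 and 110 CPM in light (0.68 ± 0.15, edgeR adjusted p = 0.00262). Its antisense partner Gm45875 was higher too (1.16 ± 0.23, edgeR adjusted p = 0.00117). The Kv1 gene Kcna1 rose from a median of 28.3 to 44.9 CPM (0.59 ± 0.17, edgeR adjusted p = 0.0262), and in lines E1 and E123 all its light libraries lay above all its dark ones. Its call was lost in 5 of 48 leave-one-out fits.

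The lower genes were Kcnh5 (-0.67 ± 0.15, edgeR adjusted p = 0.00402), Kcnj3 (-0.66 ± 0.15, 0.00581), Kcnt2 (-0.57 ± 0.15, 0.0156), Kcnh1 (-0.56 ± 0.16, 0.0282) and Kcnb2 (-0.50 ± 0.15, 0.0319). The calls of Kcnh1 and Kcnb2 were lost in 7 and 9 leave-one-out fits. All 5 are longer than 100000 bases, and 18 of the 19 members of that length were lower. Kcnh5 was the one member still called without the 2 E1 dark libraries (-0.76), and none was without the 4 or with the length index as a covariate. The count was 15 without E1 dark replicate 3, where calls over all genes rose from 1207 to 2493. It was 5 without E1 dark replicate 1 or 2 or E23 light replicate 2, with 647, 605 and 897 calls over all genes. Kcnf1, Kcnt2 and Kcnh1 passed in both fractions. The labels do not say whether VIP and total libraries of one number come from one animal, and 48 of 48 such pairs carry the same sex label, so the fractions are not independent evidence. No member passed for a difference in dCre light response between VIP and total nuclei (edgeR; 1 at an unadjusted p under 0.05, 0 with DESeq2; 0% of all genes), led by Kcnh8, Kcnmb4 and Kcnj3 at adjusted p-values of 0.542, 0.87 and 0.874. None passed for a difference between the 3 lines in dCre VIP nuclei (edgeR; 7 at an unadjusted p under 0.05, 0 without a filter on low counts; 0.034% of all genes). Kcnc1, Kcng2 and Kcns1 had the smallest p-values there (edgeR adjusted p = 0.321, 0.393 and 0.411). Without E1 dark dCre replicate 3, 3 members passed, as did 540 of all genes against 7 with it.

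In Cre total nuclei 2 members passed, Kcnk1 higher and Kcnj3 lower, against 1.49% of genes (1.09% higher, 0.396% lower). Kcnk1 had 27.5, 56.2 and 79.4 CPM in 12 dark libraries and 43.9, 83.6 and 119 CPM in 12 light ones (0.77 ± 0.15, edgeR adjusted p = 0.000931). It passed in each of 8 alternatives and 48 leave-one-out fits, including the length index as a covariate, with adjusted p-values up to 0.00893. Gm45875 had a log2 fold change of 0.77 ± 0.23 there (edgeR adjusted p = 0.0758), and since strand is unknown, a part of it in the Kcnk1 values cannot be told apart. In E123 the 3 dark libraries of Kcnk1 (27.5 to 32.5 CPM) lay below its 4 light ones (72.3 to 94.1 CPM). Its ranges overlapped in E1 and E23. In VIP nuclei Kcnk1 had medians of 53.0 CPM in dark and 52.7 CPM in light with Cre, and 38.4 and 53.3 CPM with dCre, and did not pass. Kcnj3 was lower by -0.57 ± 0.15 on the log2 scale (edgeR adjusted p = 0.0429), with medians of 381 and 315 CPM, and lost its call in 17 of 48 leave-one-out fits. With total counts in place of TMM 3 members passed, 1 higher and 2 lower. The light comparisons with Cre and with dCre share no libraries.

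**Figure D5:**
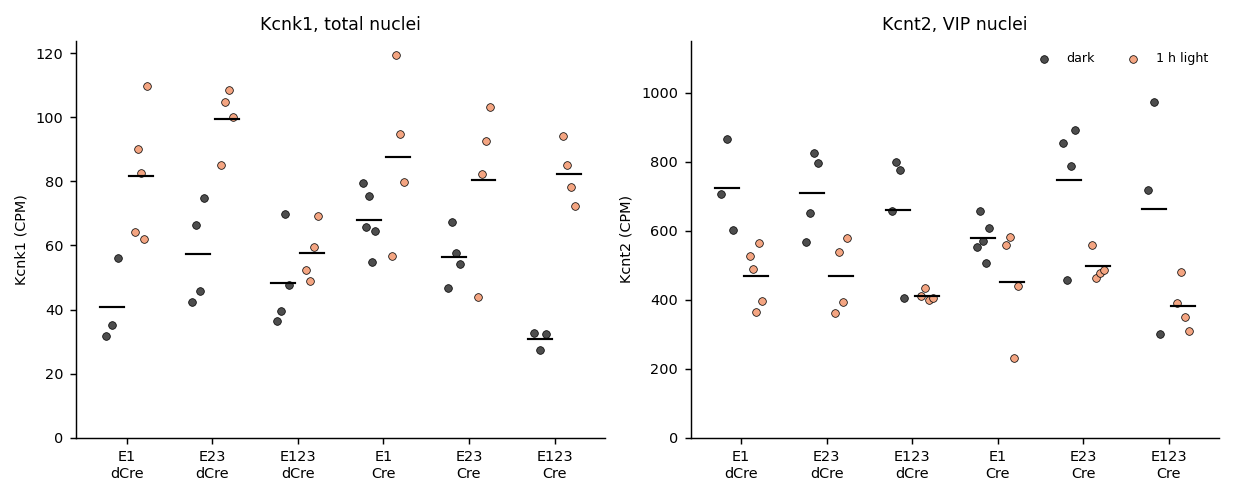
CPM of Kcnk1 in total nuclei (left) and of Kcnt2 in VIP nuclei (right) for each library by line and virus, dark in grey and 1 h light in orange, with a line at each group mean. The mean of Kcnk1 is higher and that of Kcnt2 lower in light in all 6 pairs of groups, and the dark and light points of some pairs overlap.

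The promoters of these genes were read for the motifs of factors that activity switches on. The 250 bases before the RefSeq start (GRCm38.p6) are shown for Kcnk1, Kcnf1 and Kcnt2, each called in at least 1 light comparison, with any match in capitals.
Kcnk1: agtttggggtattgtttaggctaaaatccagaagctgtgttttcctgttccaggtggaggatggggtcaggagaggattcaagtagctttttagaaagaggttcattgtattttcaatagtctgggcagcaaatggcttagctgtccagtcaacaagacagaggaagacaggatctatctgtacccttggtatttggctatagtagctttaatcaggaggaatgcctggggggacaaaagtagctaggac
Kcnf1: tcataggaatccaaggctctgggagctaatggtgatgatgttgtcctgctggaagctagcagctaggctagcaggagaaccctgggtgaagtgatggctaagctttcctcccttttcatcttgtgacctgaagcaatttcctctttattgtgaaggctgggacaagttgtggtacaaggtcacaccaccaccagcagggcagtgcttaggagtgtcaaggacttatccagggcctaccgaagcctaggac
Kcnt2: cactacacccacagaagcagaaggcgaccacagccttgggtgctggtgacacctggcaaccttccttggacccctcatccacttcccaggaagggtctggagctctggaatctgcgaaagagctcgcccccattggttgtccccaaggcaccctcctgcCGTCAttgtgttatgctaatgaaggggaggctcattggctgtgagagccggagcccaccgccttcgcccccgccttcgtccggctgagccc
They lie at chr8:125994852-125995101 (plus strand), chr12:17176889-17177138 (minus) and chr1:140245468-140245717 (plus). Of the 64 members 43 matched an entry. Searched on both strands, the CREB motif TGACGTCA occurred in 0 of 43 (1.55% of 32851 promoters of the same length), the AP-1 motif TGANTCA in 0 (6.75%) and the Egr motif GCGTGGGCG in 0 (0.536%). The CREB core TGACG, which lies within the full motif, occurred in 11 of 43 (25.6%, against 17.8% of all), among them Kcnt2, at 91 bases before the start on the minus strand, and Kcnc1. A match is a run of letters and not a measured site, and the absence of one says nothing about binding elsewhere.

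The comparison of Cre with dCre asks whether loss of the Igf1 enhancers in VIP cells is followed by changes in channel genes. In VIP nuclei of line E1, over light and dark, 3 of 64 members passed, against 1.57% of 20585 genes (0.928% higher, 0.646% lower). Kcnf1 was higher with Cre (1.19 ± 0.28, edgeR adjusted p = 0.0299), at 62.3, 97.3 and 156 CPM in 9 Cre libraries and 18.4, 59.1 and 109 CPM in 8 dCre libraries. Kcnq3 (-0.72 ± 0.18, edgeR adjusted p = 0.0363) and Kcnq1 (-0.75 ± 0.20, edgeR adjusted p = 0.0447) were lower. Kcnq1ot1 had 99.2% as many counts as Kcnq1, so the Kcnq1 value cannot be assigned to the channel gene. The medians of Kcnq3 were 440 CPM with Cre and 633 CPM with dCre. No member passed without E1 dark dCre replicates 1 and 2 or with the length index as a covariate, and 1, Kcnf1, passed with total counts. Calls moved over all genes as well when single libraries were left out. The count was 11 members and 2460 genes without dCre dark replicate 3 and 5 members and 655 genes without Cre light replicate 1, against 324 genes with all libraries. It was 0 members and 10 to 32 genes without Cre dark replicate 4, Cre light replicate 4, dCre light replicate 1 or dCre dark replicate 1 or 2. It was 1 member and 74 to 219 genes without Cre dark replicate 3 or 5, Cre light replicate 2 or 3, or dCre light replicate 4. With sex as a covariate it was 4 members and 682 genes.

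In VIP nuclei of line E23 no member passed (edgeR; 7 at an unadjusted p under 0.05, 0 with DESeq2; 0% of all genes), and the smallest p-values were those of Kcnh3 (-1.29 ± 0.51, edgeR adjusted p = 0.659), Kcnn1 (edgeR adjusted p = 0.659) and the sparse Kcnk13 (edgeR adjusted p = 0.678). In line E123 none passed (edgeR; 18 at an unadjusted p under 0.05; 0.0389% of all genes), and DESeq2 called 7. The smallest p-value there was that of Kcnq3 (-0.68 ± 0.19, edgeR adjusted p = 0.0979). Kcnq3 spanned 535 to 817 CPM in 7 Cre libraries and 750 to 1374 CPM in 8 dCre libraries of this line. The E123 dCre libraries include the dark ones of high length index. The mean index in VIP nuclei of this line was 3.31 in dark and 2.89 in light dCre groups, against 2.44 and 2.13 with Cre. In this comparison 50 of 64 members had a negative log2 fold change (median -0.47, against 0.0025 over all genes). The part of gene span and of the length index in this skew was not tested.

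Total nuclei gave 0 members for Cre against dCre over the 3 lines (edgeR; 9 at an unadjusted p under 0.05, 0 with DESeq2; 0.0283% of all genes). Among the smallest p-values were those of Kcnf1 (0.78 ± 0.21, edgeR adjusted p = 0.171) and Kcnq1 (-0.26 ± 0.11, edgeR adjusted p = 0.367). The Kcnq1 counts cannot be told apart from those of Kcnq1ot1. Leaving out E1 dark dCre replicate 3 gave 4 members and 532 of all genes, against 6 genes with it. Of the channel partner list no gene passed in any Cre comparison. With light, 2 of 23 were lower in dCre VIP nuclei, against 2.3% of all genes. They were Adam23 (-0.61 ± 0.14, edgeR adjusted p = 0.00786) and Ank3 (-0.53 ± 0.14, edgeR adjusted p = 0.018). In dCre total nuclei 2 of 22 were lower, against 2.27% of all genes.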

How the data were processed

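Libraries of 50 to 100 sorted nuclei were made with SMART oligo-dT primers, 17 PCR cycles and a Nextera XT kit, per the labels' protocols; the protocol names neither strand marking nor molecular identifiers. The deposited file holds raw counts per gene and library (55335 genes, 96 libraries). The submitters' processing notes name cutadapt 1.18, STAR 2.5.3a, HOMER 4.9.1 and mm10; annotation release and strand setting are not given in the sources used here. Symbols and lengths came from GENCODE (GRCm38); 181 unmatched identifiers held 0.0225% of counts.

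Genes were tested with edgeR 4.0.16 (R 4.3.3; quasi-likelihood F test, TMM, default count filter, 1 coefficient per group), in VIP nuclei (48 libraries), total nuclei (48) and all 96, with Benjamini-Hochberg adjustment over all genes tested and a threshold of 0.05. Levels are CPM on the library sizes of the fit concerned, so those of the joint fit and of a single fraction differ slightly. Each SE was taken as the absolute log2 change over the root of its F statistic. Counts carry a precision set by totals of 1559883 to 9122515 and a biological coefficient of variation of 0.815 in VIP and 0.679 in total nuclei. On simulated counts, VIP against total recovered 68 of 100 genes changed 2-fold and 91 of 100 changed 4-fold, with 38 false calls among 21668 genes; light in dCre VIP nuclei recovered 31 and 69 of 100, with 5 false calls. All 148 pairs of libraries within groups differed by more than sampling noise.

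The members, gene lists and tests were chosen with earlier results of these data known. In VIP against total nuclei up to 4 called genes per role and direction are named; in other comparisons up to 12 per direction, or the 3 of smallest p where none passed, besides the 10 highest members per kb of exon. Counts cover all members; results of 4 single members are not reported here. Alternatives were DESeq2 1.42.0, no count filter, total counts, the length index as covariate, a replicate block, leaving out each library, leaving out the dark dCre libraries of high length index and, added after seeing the data, sex as covariate. The replicate block joined libraries of one number. For VIP against total these were the VIP and total library of a condition. For comparisons of light or light response they were light and dark libraries, and for Cre against dCre they were Cre and dCre libraries. Only the first kind of block could join libraries of one animal. Leave-one-out fits kept the dispersion trend of the full data.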

Additional observations from a re-analysis of the deposited data

Results flagged for a closer look

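Within-group outliers were sought for Kcnf1, Kcnt2 and Kcnmb4 in VIP nuclei and Kcnk1 and Kcnj3 in total nuclei, in 50 groups of 4 or 5 libraries, and 2 were found; chance flags about 1 in 20 groups. Kcnf1 was 144 CPM in light Cre VIP nuclei of E23, replicate 3, against 72.3 to 78.7 CPM in the other 3 libraries, a gap of 0.91 of the range. Kcnj3 was 320 CPM (319.7) in dark Cre total nuclei of E1, replicate 5, against 378 to 394 CPM in the other 4, a gap of 0.778 of the range.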

How the results depend on the processing

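The number of members called in VIP against total nuclei was 40 to 44 under every alternative, and the replicate block gave 13 higher and 31 lower, as did total counts. For light in dCre VIP nuclei (8 members) the count was 0 with the length index as covariate, 0 without the E1 dark dCre replicates 1 and 2, 0 without those of E123 as well and 5 with total counts. In Cre VIP nuclei (0) it was 2 with DESeq2, 2 without a count filter, 1 with the covariate and 1 with total counts. In dCre total nuclei (8) it was 0 with the covariate, 1 and 0 without those libraries, and 5 with the replicate block. In Cre total nuclei (2) it was 4 with the covariate, 4 without the filter and 1 with the replicate block. For Cre in E1 VIP nuclei (3) it was 6 with DESeq2, 6 without the filter, 1 with total counts and 0 with the covariate or without those libraries. For Cre in E123 VIP nuclei (0) it was 7 with DESeq2, 2 without the filter and 4 with the replicate block, and for Cre in total nuclei (0) it was 1 without the filter. The causes were not tested.

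Leave-one-out counts ran from 40 to 44 for VIP against total nuclei; for light, from 4 to 11 in dCre VIP, 0 to 1 in Cre VIP, 5 to 15 in dCre total and 1 to 3 in Cre total nuclei. For Cre they ran from 0 to 11 in E1, 0 to 0 in E23, 0 to 1 in E123 and 0 to 4 in total nuclei; for the light response they ran from 0 to 1 between Cre and dCre, 0 to 3 between lines and 0 to 0 between fractions. Among the genes named in each comparison the 1 change of sign under any alternative was that of Kcnh8 in the Cre minus dCre light response, from -3.92 to 0.0233 (log2) with the replicate block. Over all 64 members signs changed more often: for light in dCre VIP nuclei 18 changed with the length index as covariate and 12 without the 4 dark libraries, and in dCre total nuclei 20 and 20, none of them a called member. Whether replicate numbers pair the samples was not settled: over 48 VIP and total libraries of one condition and number the correlation of deviations was -0.0665 to 0.498, above 0.1 in 25, and 32 correlated best with their own number, a hint of pairing, and 48 of 48 had the same sex label. Since not every correlation exceeded 0.1, the unblocked fit was kept. Its p-values and SEs for VIP against total nuclei thus treat the VIP and total libraries of one number as independent. With the replicate block 44 members passed, 40 of them among the 42 called without it. Total counts moved the median log2 change of all genes by -0.13 in VIP against total nuclei, 0.11 for light in dCre VIP, 0.17 for Cre in E1 and in E123, and -0.11 for the Cre minus dCre light response. Sparse members such as Kcns1, Kcnh8 and Kcnj16 are limited by depth.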
